A study of Mus musculus with 28 samples.

Results

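A set of 40 genes whose products store, release and recover neurotransmitter at the presynaptic terminal was followed in total RNA sequenced from female mouse ventromedial prefrontal cortex. The genes were chosen for their known roles, and their symbols matched 40 of the 52636 genes counted. All 40 were above 0 in at least 1 library, and 38 passed the count filter and were among the 19171 genes tested. Release begins with a synaptic vesicle that is tethered by synapsins, docked at the active zone by scaffold proteins and primed by the Munc13 family. A SNARE complex of syntaxin and SNAP-25 on the plasma membrane and VAMP on the vesicle then drives fusion, clamped by complexins and triggered when synaptotagmin binds calcium. Dynamin and its partners recover the membrane, while NSF and SNAP proteins take the spent SNARE complex apart.

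There were 4 groups of 7 mice, 1 library per mouse. The first had received a virus labelled Slit1 KD, for knockdown, and 3 days of a stress procedure that the labels abbreviate sCVS, and is called KD stressed. The others were KD unstressed, LacZ stressed and LacZ unstressed, where the virus labelled Lac_Z was the control, so every mouse carried a virus. The tissue was cut from brain slices with a blunt needle and its viral fluorescence was checked under a microscope, so each library is bulk tissue of mixed cells. The promoter and target sequence of the virus, the mouse strain and the age are not given in the sources used here.

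Slit1, the targeted gene, encodes a secreted axon guidance ligand. Its level ran from 7.48 to 30.9 CPM (counts scaled to a common library total) in KD stressed libraries, from 9.48 to 59.9 in KD unstressed, from 9.28 to 33.9 in LacZ stressed and from 12.6 to 56.3 in LacZ unstressed libraries. The ranges overlapped, and the log2 difference of KD from LacZ averaged over both stress states was -0.02, with a 95% interval from -0.64 to 0.60. A lower Slit1 level was therefore not seen in the libraries labelled KD, and every direction given for KD rests on the label.

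Total counts ran from 30647778 to 44281716 fragments per library. Neurons were present in every group: the summed level of the neuron markers ran from 1481 to 2871 CPM in KD stressed, 1569 to 4004 in KD unstressed, 1433 to 3226 in LacZ stressed and 1683 to 3355 CPM in LacZ unstressed libraries. That sum covers Rbfox3, Map2 and Elavl4, 3 of 5 markers, since Tubb3 and Nefl, which lie wholly inside other counted genes, were at 0. Most of the sum is Map2, at 1210 to 3458 CPM. Rbfox3 was at 26.9 CPM in KD unstressed replicate 7, where the sum was highest, and at 220 CPM in KD unstressed replicate 2. Some libraries stood apart. KD stressed replicate 2 held 2421 CPM of bone markers, against at most 53.1 CPM in any library of the other groups, and KD stressed replicate 7 held 220.0 CPM of markers of striatal neurons, against at most 136 CPM there. In LacZ stressed replicate 4 the T cell markers Cd8a and Cd3e stood at 0.0453 CPM each and Gzmb at 0.408 CPM, the lowest of the 28 libraries. With Trbc2, at 10.5 CPM, its T cell markers summed to 10.97 CPM, not far under the 13.4 CPM of KD unstressed replicate 5.

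Levels were compared per kilobase (kb) of counted span, which runs over introns and exons. The highest medians over the 28 libraries were 25.5 CPM per kb for Syt4, a synaptotagmin of neuropeptide vesicles, 20.3 for Snap25, the plasma membrane SNARE, and 18.3 for Vamp2, the main vesicle SNARE of forebrain. The Syt4 value rests on little sequence, since 73.9% of its span also belongs to an overlapping gene and fragments there are counted for neither. The order of the members depends on the divisor. Exons make up 97.8% of the Vamp2 span and 1.62% of the Syt1 span. Per kb of exons the median was 18.7 CPM for Vamp2 and 284 CPM for Syt1. At the low end per kb of span, Unc13c, the Munc13-3 gene best known from cerebellum, had 0.102 CPM per kb. Exons make up 1.80% of its span, and its median in CPM, 49.8, lay near the 48.1 of Unc13a. Syt2, the fast calcium sensor of hindbrain synapses, had 0.0405 CPM per kb.

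Below these lay 3 members whose products belong to the standard release machinery. Rims1, an active zone scaffold, had 3 to 16 fragments per library with a median of 10, although its paralogue Rims2 had 12648 to 29812. Rab3a, a small GTPase of the vesicle membrane, had 0 to 3 fragments, and Nrxn2, a presynaptic adhesion gene, had 0 or 1. Both fell to the count filter and were not tested. In the counted annotation 0.154% of the Rims1 span, 0.725% of the Rab3a span and 7.08% of the Nrxn2 span overlap another gene. The reason for these counts was not tested, and they were not shown to mean little RNA.

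The plot of core genes by group shows the values behind the comparisons. Syp, which encodes the vesicle membrane protein synaptophysin, ran from 11.7 to 116 CPM (median 26.0) in KD stressed, 9.69 to 102 (42.4) in KD unstressed, 17.7 to 109.8 (25.5) in LacZ stressed and 21.4 to 165 (26.9) in LacZ unstressed libraries. Stx1a, the neuronal syntaxin, ran from 4.004 to 67.3 CPM (median 11.995) in KD stressed, 6.95 to 62.4 (19.9) in KD unstressed, 7.00 to 67.02 (9.996) in LacZ stressed and 8.54 to 149 (11.8) in LacZ unstressed libraries. Each group held both high and low libraries for Syp and Stx1a, and the ranges of the groups lay over one another.

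Vamp2 ran from 31.7 to 127 CPM (median 57.7) in KD stressed, 45.5 to 155 (83.4) in KD unstressed, 46.4 to 129 (62.2) in LacZ stressed and 51.5 to 143 (73.1) in LacZ unstressed libraries. Snap25 ran from 823 to 1989 CPM (median 1387) in KD stressed, 848 to 3553 (1181) in KD unstressed, 864 to 2500.4 (1711) in LacZ stressed and 1087 to 2509.7 (1254) in LacZ unstressed libraries. For Syt1, the fast calcium sensor of forebrain, the range was 1595 to 3536 CPM (median 2301) in KD stressed, 1737 to 4819 (2252) in KD unstressed, 1549.8 to 3713 (2521) in LacZ stressed and 1911 to 4449 (2115) in LacZ unstressed libraries. The groups overlapped for all 3 genes. Syp and Stx1a were highest in the same library, LacZ unstressed replicate 1, and Snap25 and Syt1 in another, KD unstressed replicate 7.

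**Figure D1:**
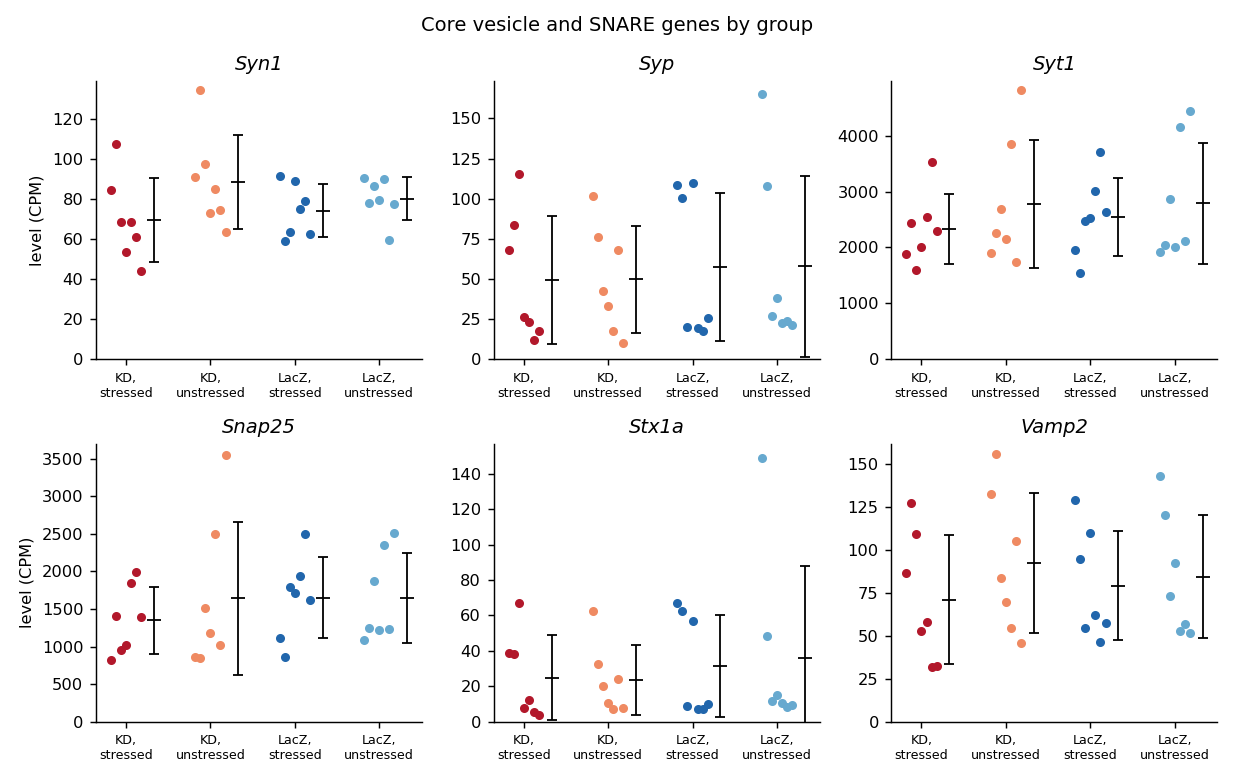
Level in CPM (vertical axes, starting at 0) of 6 core vesicle and SNARE genes in the 4 groups, with 1 point per library and the mean ± SD of 7 libraries as a bar beside them. The ranges of the groups overlap for all 6 genes; Syp and Stx1a have high and low libraries in every group.

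The members divided into sets that moved together from library to library. To describe this, the first principal component of log2 CPM was taken over genes that are no members. It held 58.8% of the variance of those genes, and the 4 groups explained 0.186% of its own variance. Its values ran from -1.32 to 1.33 in KD stressed, -1.99 to 1.29 in KD unstressed, -1.29 to 1.41 in LacZ stressed and -1.21 to 1.69 in LacZ unstressed libraries, in units of its SD, so libraries of each group lay on both sides of 0. The sign was set so that genes with GC-rich exons rise along it. A slope below is the log2 change in a gene's level per SD of the component, fitted within groups.

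Of the 38 members tested, 32 had a slope that passed an adjusted p of 0.05 in edgeR's quasi-likelihood test, 18 of them above 0 and 14 below. This share lies near that of all genes tested, of which 77.1% passed, 40.6% above and 36.5% below 0, so a slope as such is not particular to release genes. The map of all members by library shows the division: the upper rows are high in the libraries at the right end and the lower rows at the left end, with all 4 groups mixed along the axis.

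**Figure D2:**
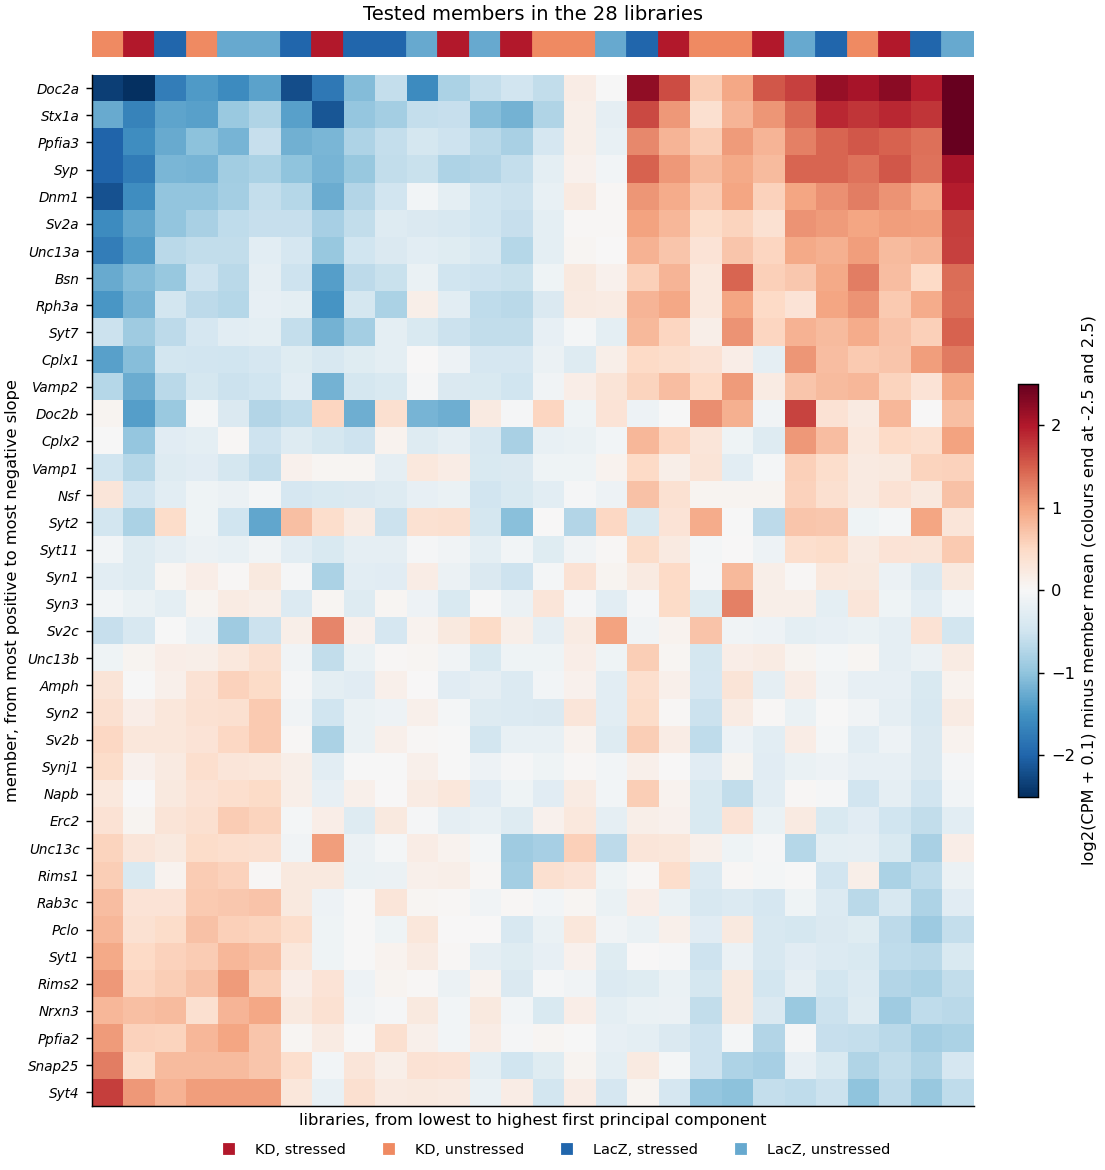
Level of the 38 tested members (rows, ordered by slope) in the 28 libraries (columns, ordered by the first principal component), as log2(CPM + 0.1) minus the member's mean over libraries. The strip on top gives the group of each library; red cells lie at the upper right and the lower left, and the 4 groups are mixed along the columns.

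Doc2a, a calcium sensor of slow release, had the steepest slope, 1.86 ± 0.11 (SE). It had 3 fragments, or 0.158 CPM, in KD unstressed replicate 7, where the component was lowest, and 632 fragments, or 13.2 CPM, in LacZ unstressed replicate 1, where it was highest. Stx1a had a slope of 1.27 ± 0.10 and Ppfia3, which encodes liprin-alpha-3 of the active zone, one of 1.16 ± 0.06. In the same libraries Ppfia3 stood at 2.63 CPM in KD unstressed replicate 7 and 63.9 CPM in LacZ unstressed replicate 1. Likewise, Stx1a stood at 7.48 CPM in KD unstressed replicate 7 and 149 CPM in LacZ unstressed replicate 1, and Dnm1, the neuronal dynamin, at 23.8 CPM in the KD library and 422 CPM in the LacZ library. Stx1a was lower still in KD stressed replicate 7, at 4.004 CPM, which put its highest library 37.2-fold above its lowest.

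At the other end were Syt4 with a slope of -0.69 ± 0.06, Snap25 with -0.49 ± 0.05 and Ppfia2, the gene of liprin-alpha-2, with -0.49 ± 0.03. Snap25 stood at 3553 CPM in KD unstressed replicate 7 and 1087 CPM in LacZ unstressed replicate 1, and Syt4 at 841 CPM in the KD library and 162 CPM in the LacZ library. Stx1a and Snap25 encode partners in 1 SNARE complex, and the ratio of their fragments changed widely among libraries of the same group. Few members were steady. By the SD of log2 CPM over the 28 libraries, the least variable were Synj1, the phosphatase that uncoats endocytosed vesicles, with 0.21, Unc13b, the Munc13-2 gene, with 0.25, and Syt11, with 0.28. The most variable were Doc2a with 1.79, Stx1a with 1.39 and Ppfia3 with 1.18.

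The slopes followed the GC content of the exons. All 12 members with at least 55% GC rose along the component, with slopes from 0.12 for Syn1 to 1.86 for Doc2a. These were Syn1, Doc2b, Vamp2, Cplx1, Syt7, Rph3a, Bsn, Unc13a, Dnm1, Ppfia3, Stx1a and Doc2a. Of the 20 members under 50% GC, 14 fell along it, and Nsf, Vamp1 and Syt11, 3 in all, rose. Of the 6 in between, Cplx2, Sv2a and Syp rose. Over the 38 members the correlation of slope with exonic GC was r = 0.87 and rho = 0.88. Over all genes tested that have a GC value, 19120, it was r = 0.77 and rho = 0.81, and 89.0% of the genes with at least 55% GC rose while 60.9% of those under 50% fell. The genes share libraries and depth, and other properties move with GC: the slope also fell with the length of the counted span, with r = -0.65 over the members and -0.28 over all genes. The part of each property was not tested.

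**Figure D3:**
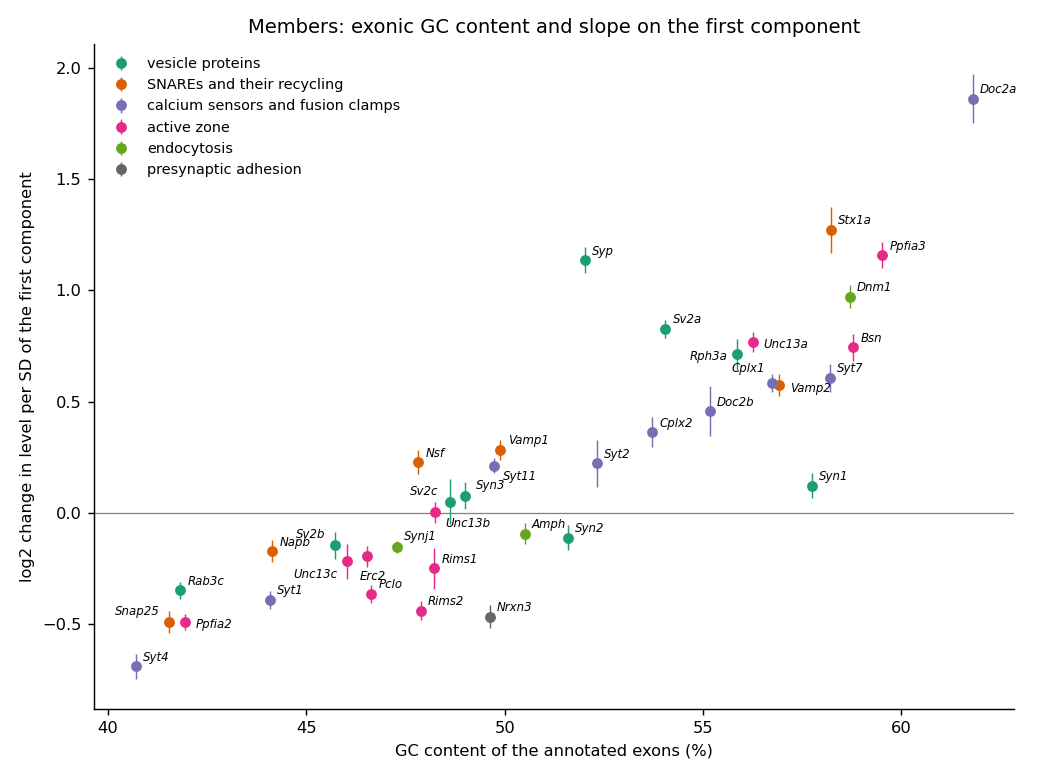
Slope on the first principal component (vertical axis, log2 change per SD, bars are SE) against the GC content of the annotated exons (horizontal axis, %) for the 38 tested members, coloured by role. Members of each larger role lie on both sides of 0; Doc2a is at the upper right and Syt4 at the lower left.

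The larger roles each held members that rose and members that fell. Among the SNARE genes and those that recycle them, 4 of 6 rose and 2 fell. Among the synaptotagmin, Doc2 and complexin genes 6 of 9 rose and 2 fell, and of the vesicle proteins 4 of 9 rose and 2 fell. The active zone genes split as 3 that rose, Ppfia3, Unc13a and Bsn, and 6 that fell, Ppfia2, Rims2, Pclo, Unc13c, Erc2 and Rims1, with medians of 48.1% for exonic GC and -0.21 for the slope.

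Paralogues of the same function could move apart, and 2 such pairs, picked after their values were seen, show the difference in sequence. Liprins-alpha are scaffold proteins of the active zone, and SV2 proteins are glycoproteins of the vesicle membrane. The first 120 coding bases of each gene, from the GENCODE M21 transcript with the longest coding sequence (GRCm38), are shown because the exonic GC content parts these paralogues, and are printed 5′ to 3′ with G and C in capitals:
Ppfia3: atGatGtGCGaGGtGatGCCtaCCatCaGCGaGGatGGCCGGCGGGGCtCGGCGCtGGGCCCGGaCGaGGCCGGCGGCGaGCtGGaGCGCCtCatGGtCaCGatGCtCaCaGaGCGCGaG
Ppfia2: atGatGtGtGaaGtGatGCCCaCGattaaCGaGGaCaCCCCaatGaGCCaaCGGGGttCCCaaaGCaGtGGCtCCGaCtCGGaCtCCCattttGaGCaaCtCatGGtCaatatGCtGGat
Sv2a: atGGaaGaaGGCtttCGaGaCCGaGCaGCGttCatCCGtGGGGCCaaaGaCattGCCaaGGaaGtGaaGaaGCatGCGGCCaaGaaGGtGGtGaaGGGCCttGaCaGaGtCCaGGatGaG
Sv2b: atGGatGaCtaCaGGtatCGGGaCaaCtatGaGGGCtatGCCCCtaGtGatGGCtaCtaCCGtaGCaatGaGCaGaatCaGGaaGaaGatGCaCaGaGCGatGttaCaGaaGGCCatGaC
Of the 120 bases, 84 are G or C in Ppfia3 and 62 in Ppfia2, and over the whole coding sequence the share is 59.8% for Ppfia3 and 46.6% for Ppfia2. Sv2a has 66 such bases in this stretch and Sv2b has 59, and over the coding sequence the share is 55.7% for Sv2a and 50.02% for Sv2b. Ppfia3 lies on chromosome 7 (45339122 to 45367019, minus strand), Ppfia2 on chromosome 10 (106470339 to 106935952, plus strand), Sv2a on chromosome 3 (96181151 to 96195521, plus strand) and Sv2b on chromosome 7 (75114894 to 75309262, minus strand). Over the 38 members the slope correlated with GC at the third codon position at r = 0.65 and at the other codon positions at r = 0.36, below the value for whole exons.

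Ppfia3 had a slope of 1.16 ± 0.06 and Ppfia2 one of -0.49 ± 0.03. Sv2a had a slope of 0.83 ± 0.04 and Sv2b one of -0.14 ± 0.06. As these pairs were picked by their values, they are examples and no test of GC. Not every pair parted so: Vamp1 and Vamp2, with exonic GC of 49.9% and 56.9%, both rose, with slopes of 0.28 and 0.58. Per kb of span, Sv2a stood above Sv2b in 16 of 28 libraries and below it in the others, with a ratio from 0.286 in KD unstressed replicate 7 to 3.73 in LacZ unstressed replicate 1. Within each group this ratio lay on both sides of 1. The order rests on the divisor, since the Sv2b span is mostly intron: in CPM, and per kb of exons, Sv2a was above Sv2b in 0 of 28 libraries, with a ratio from 0.0382 to 0.498 per kb of exons. Unc13a, the main Munc13 gene of forebrain, ran from 0.620 to 5.43 times the level of Unc13b per kb of span, and was above it in 26 of 28 libraries. Per kb of exons it was above Unc13b in 9 of 28, with medians of 3.81 CPM for Unc13a and 5.89 CPM for Unc13b, and in CPM in 1 of 28. On every scale the ratio of each pair varied over the libraries by the same factor, and only the order of the paralogues depends on the scale.

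**Figure D4:**
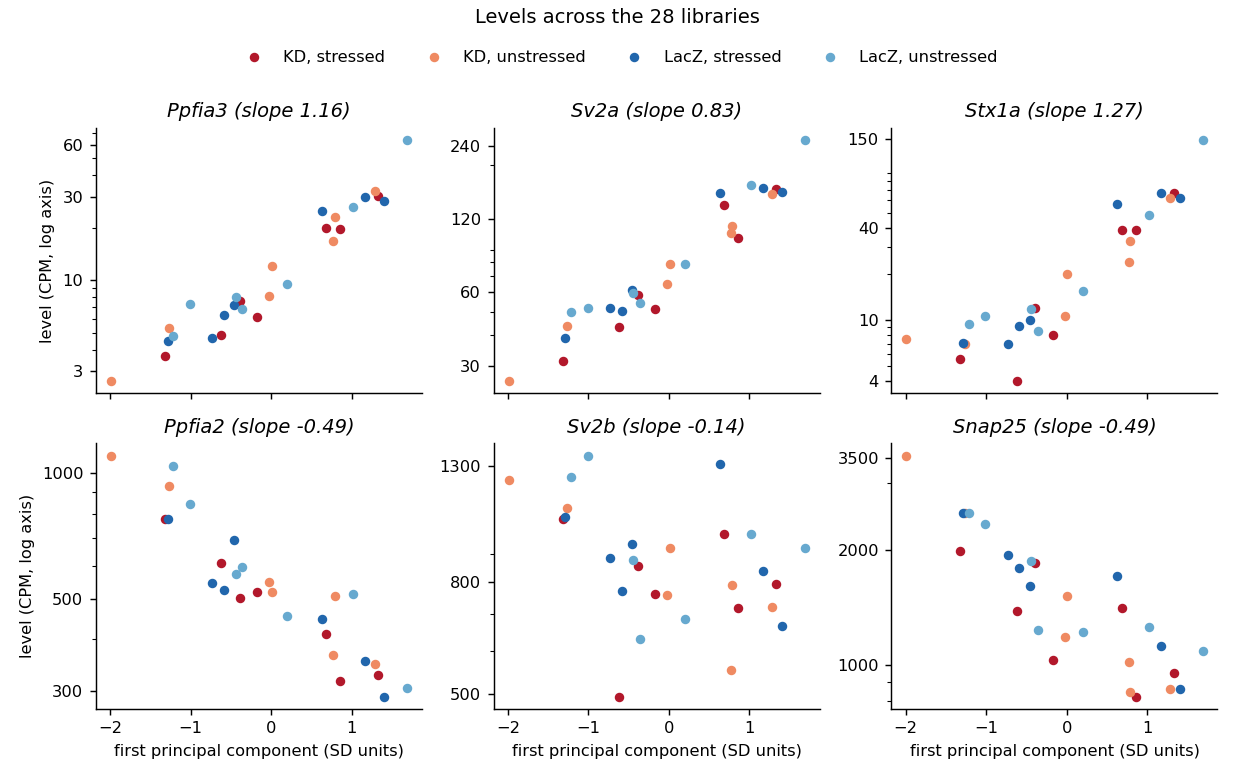
Level in CPM (log axes) of Ppfia3, Sv2a and Stx1a (upper row) and of Ppfia2, Sv2b and Snap25 (lower row) against the first principal component (SD units), 1 point per library, coloured by group. The upper row rises and Ppfia2 and Snap25 fall along the axis, with points of all 4 groups on the same course.

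Other pairs kept their order per kb of span in all 28 libraries, and per kb of exons too, except that Cplx1 was above Cplx2 in 1 of 28. Vamp2 was above Vamp1 per kb, with Vamp1 at 0.0128 to 0.0752 of its level. Cplx2 was above Cplx1, at a ratio of Cplx1 to Cplx2 from 0.0462 to 0.181, and Syn2 above Syn1, at a ratio of Syn1 to Syn2 from 0.310 to 0.755. Syt1 exceeded Syt2 by 37.4 to 505 times. Of the Vamp1 span, 40.5% overlaps another gene, so its level per kb is understated.

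Numbers in the sample titles, whose meaning the labels do not give, moved with the component. It was above 0 in 11 of 15 libraries numbered up to 20 and in 2 of 13 numbered above 20. Both sets held mice of every group, though unevenly: the lower numbers held 4 of 7 KD stressed, 2 of 7 KD unstressed, 4 of 7 LacZ stressed and 5 of 7 LacZ unstressed mice. Slopes were also fitted within each set. Up to 20, 28 of 38 members had a slope that passed, against 61.3% of all genes. Above 20, 25 of 38 passed, against 58.8% of all genes. In both sets 13 members rose and 10 fell, and 36 of 38 had the same sign. Stx1a had a slope of 1.49 ± 0.14 in the lower numbers and 0.71 ± 0.16 in the higher, and Snap25 had -0.41 ± 0.09 and -0.70 ± 0.08. Markers of other cells had slopes too. All 4 microglia markers tested rose, with a median of 1.24 and a median exonic GC of 56.8%, while of the 3 neuron markers 1 rose and 2 fell, with a median of -0.38 and an exonic GC of 44.0%. Most other lists held markers of both directions. Of 5 excitatory neuron markers 2 rose and 2 fell, and of 6 interneuron markers 2 rose and 3 fell. Of the markers tested, 1 of 5 for astrocytes rose and 4 fell, and 2 of 5 for striatal neurons rose and 1 fell. Of 6 oligodendrocyte markers 4 rose and 1 fell, and of 4 endothelial markers 3 rose and 0 fell. Their part in the members' slopes was not tested, and in bulk tissue fewer cells of a type and less RNA per cell cannot be told apart.

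The KD label was compared with LacZ within each stress state and averaged over both. No member passed the test. In KD unstressed against LacZ unstressed mice, 0 of 38 members passed an adjusted p of 0.05 in edgeR, as did 0% of all genes. There 26 members lay below 0, which 52.9% of all genes did, with a median log2 fold change of -0.05 for members and -0.01 for all genes. In KD stressed against LacZ stressed mice, 0 of 38 passed against a background of 0%, 32 lay below 0 against 57.7% of all genes, and the median was -0.13 against -0.03. Averaged over both, 0 of 38 passed against 0% of all genes, 28 lay below 0 against 55.9%, and the median was -0.10 against -0.02. The SNARE group, 6 of 6 below 0 on average with a median of -0.17, and the active zone group, 5 of 10 with a median of 0.00, were the ends of the larger roles. These counts move with the libraries. With title numbers split at 20 as a covariate, 19 of 38 lay below 0 for KD in unstressed mice, with a median of 0.00. With the same covariate 20 of 38 did averaged over stress, with a median of -0.05. With the first component as a covariate, 27 of 38 lay below 0 in unstressed mice, with a median of -0.05. Averaged over stress 29 of 38 did, with a median of -0.12. Markers moved as well. In KD stressed against LacZ stressed mice, 3 of 3 neuron markers tested and 5 of 5 excitatory markers lay below 0, with medians of -0.11 and -0.28. There 5 of 5 striatal markers tested lay above 0, with a median of 0.42. The unstressed mice differed: 1 of 3 neuron and 3 of 5 excitatory markers lay below 0, with medians of 0.07 and -0.0015. Of the striatal markers 3 of 5 lay above 0 in them, with a median of 0.21. Averaged over stress, 4 of 4 T cell markers and 4 of 5 astrocyte markers tested lay above 0, with medians of 0.38 and 0.17. So did 6 of 6 bone markers, with a median of 2.96, which includes KD stressed replicate 2 and its 2421 CPM of bone markers. Their part in the members' values was not tested.

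Syn3, which encodes synapsin III of the vesicle surface, had the smallest p for the KD label. It ran from 43.5 to 78.7 CPM (median 52.3) in KD stressed, 45.4 to 134 (59.5) in KD unstressed, 44.2 to 58.6 (47.3) in LacZ stressed and 47.0 to 64.6 (56.2) in LacZ unstressed libraries. Its top value came from KD unstressed replicate 2, and the other libraries of the 4 groups overlapped. The averaged log2 difference was 0.25 ± 0.12 (± is the SE for every log2 difference), with an unadjusted p of 0.0535 and an adjusted p of 1.00 in edgeR, and it was 0.13 without that library. Within unstressed mice the difference was 0.30 ± 0.17, and 0.05 without it.

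Next by p were Napb, a SNARE recycling adaptor, at -0.19 ± 0.12, and Cplx2, a complexin, at -0.32 ± 0.20. Cplx2 ran from 77.7 to 221 CPM (median 121) in KD stressed, 128 to 186 (141) in KD unstressed, 106 to 269.7 (160.1) in LacZ stressed and 105 to 322 (144) in LacZ unstressed libraries. Its medians were lower under KD in both stress states, and the ranges overlapped. Napb ran from 508 to 741 CPM (median 564) in KD stressed, 398 to 783 (501) in KD unstressed, 440.0 to 936 (662) in LacZ stressed and 505 to 847 (621) in LacZ unstressed libraries. Among unstressed mice the smallest p values were those of Syn3, Napb at -0.21 ± 0.17 and Cplx1 at -0.39 ± 0.34, which was -0.15 without LacZ unstressed replicate 1. Among stressed mice they were those of Syt2 at -0.49 ± 0.32, Cplx2 at -0.37 ± 0.28 and Vamp1, another vesicle SNARE, at -0.24 ± 0.20. Syt2 ran from 2.23 to 6.41 CPM (median 4.53) in KD stressed and from 3.20 to 9.37 CPM (median 6.47) in LacZ stressed libraries, and the ranges overlapped. Of the core genes, the averaged difference of KD from LacZ was -0.48 ± 0.54 for Stx1a, -0.22 ± 0.44 for Syp, -0.15 ± 0.22 for Snap25, -0.07 ± 0.18 for Syt1, -0.01 ± 0.24 for Vamp2 and 0.03 ± 0.12 for Syn1. All were smaller than the standard error.

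Stress was compared with no stress under each virus and averaged over both. No member passed the test. In LacZ stressed against LacZ unstressed mice, 0 of 38 passed against 0% of all genes, and 34 lay below 0 against 54.5%, with a median of -0.11 for members and -0.01 for all genes. Without LacZ unstressed replicate 1, 20 of 38 lay below 0. In KD stressed against KD unstressed mice, 0 of 38 passed against 0%, and 31 lay below 0 against 52.5%. The median was -0.16 against -0.01, and for members -0.23 with title numbers split at 20 as a covariate. On average 0 of 38 passed against 0%, 33 lay below 0 against 53.7%, and the median was -0.15 against -0.01. Without LacZ unstressed replicate 1, 22 of 38 lay below 0, and with surrogate variables 23 of 38. With the first component as a covariate 32 of 38 did, with a median of -0.13. With title numbers split at 20 as a covariate it was 34 of 38, with a median of -0.20. The active zone genes were all below 0 on average, 10 of 10, with a median of -0.24 and values from -0.41 for Rims1 to -0.04. Averaged over virus, the core genes stood at -0.24 ± 0.24 for Vamp2, -0.23 ± 0.12 for Syn1, -0.19 ± 0.18 for Syt1, -0.14 ± 0.22 for Snap25, -0.06 ± 0.54 for Stx1a and -0.01 ± 0.44 for Syp. The members share the same libraries, and along the component 18 of them rose and 14 fell, so these counts are not of independent genes.

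Syn1, which encodes synapsin I, had the smallest p for stress under KD. It ran from 43.9 to 108 CPM (median 68.4) in KD stressed and 63.6 to 135 (85.3) in KD unstressed libraries, and from 59.2 to 91.4 (75.1) in LacZ stressed and 59.4 to 90.3 (79.4) in LacZ unstressed libraries. Of the KD stressed libraries 6 of 7 lay under the mean of the KD unstressed, with overlap of the ranges. The log2 fold change was -0.35 ± 0.17 under KD (unadjusted p = 0.0562, adjusted p = 1.00 in edgeR) and -0.11 ± 0.17 under LacZ. The interaction, -0.24 ± 0.24, had an unadjusted p of 0.345 and an adjusted p of 1.00 in edgeR. Without KD unstressed replicate 2, the highest library for Syn1 as well, the change under KD was -0.22 and the interaction -0.10. Under KD Rims1, at -0.51 ± 0.29, and Syn3, at -0.30 ± 0.17, followed Syn1, and Syn3 was at -0.06 without the same library.

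Averaged over virus, the smallest p values for stress were those of Syn3, Rims1 and Doc2b. Syn3 stood at -0.25 ± 0.12 (unadjusted p = 0.0506, adjusted p = 1.00 in edgeR), and at -0.13 without KD unstressed replicate 2. Doc2b, a high-affinity calcium sensor, ran from 1.74 to 8.49 CPM (median 4.61) in KD stressed and 4.36 to 10.6 (5.55) in KD unstressed libraries, and from 1.97 to 6.28 (4.28) in LacZ stressed and 2.04 to 15.4 (5.52) in LacZ unstressed libraries. Its medians were lower with stress under both viruses, the ranges overlapped, and the difference was -0.54 ± 0.28. Without LacZ unstressed replicate 2 it was -0.33, and under LacZ alone it was -0.59 ± 0.40 with that library and -0.18 without it. Under LacZ alone Syn3, at -0.20 ± 0.17, and Erc2, a scaffold of the active zone, at -0.20 ± 0.18, followed Doc2b. Rims1, at -0.41 ± 0.21, rests on few fragments, with 0.0903 to 0.363 CPM in KD stressed, 0.170 to 0.428 in KD unstressed, 0.120 to 0.302 in LacZ stressed and 0.209 to 0.410 CPM in LacZ unstressed libraries.

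**Figure D5:**
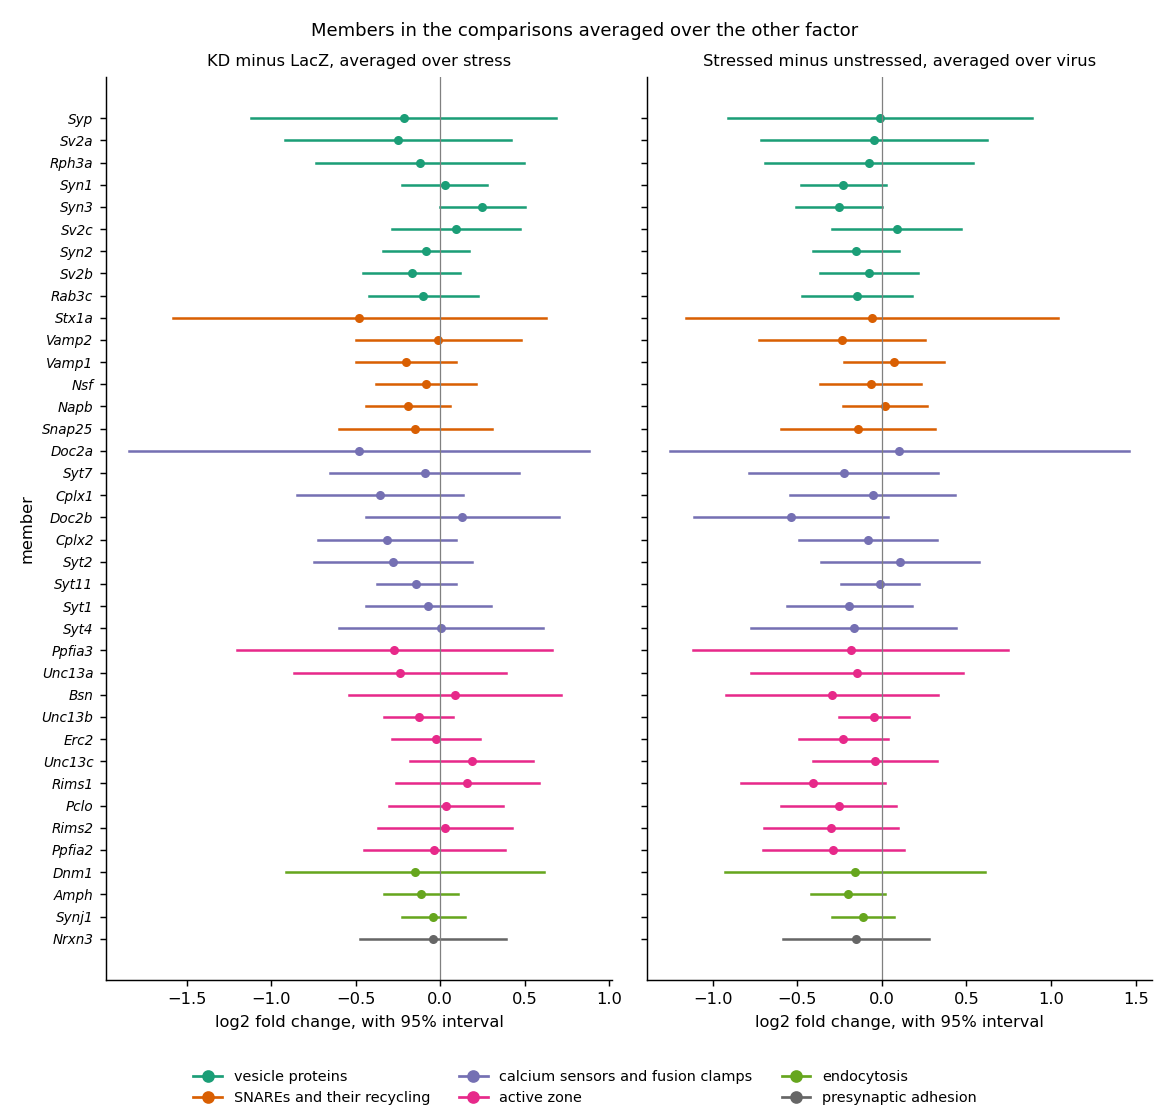
Log2 fold change (points) with its 95% interval (lines) of the 38 tested members for KD against LacZ averaged over stress (left) and for stressed against unstressed averaged over virus (right), grouped and coloured by role. Every interval crosses 0; Doc2a, Stx1a and Ppfia3 have the widest, and the active zone genes lie left of 0 on the right-hand side.

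The interaction of virus and stress gave 0 of 38 members past the test against 0% of all genes, 25 below 0 against 51.4%, and a median of -0.06 against -0.01. The smallest p values after Syn1 were those of Syt2, -0.42 ± 0.46, and Sv2c, 0.27 ± 0.37. Sv2c encodes the SV2 protein that is strong in basal ganglia, and ran from 16.8 to 51.4 CPM (median 23.7) in KD stressed, 14.9 to 36.2 (19.8) in KD unstressed, 16.6 to 28.3 (21.9) in LacZ stressed and 11.9 to 44.3 (18.6) in LacZ unstressed libraries. The 44.3 CPM of LacZ unstressed replicate 4 came with the striatal marker Drd2 at 0.974 CPM. The highest Sv2c value was that of KD stressed replicate 7, the library with the most striatal markers, where Drd2 was at 17.5 CPM. Without that library the interaction of Sv2c was 0.01. The same library held the lowest level of 8 members, among them Syn1, Stx1a, Bsn and Sv2b, and the highest of Unc13c as well as Sv2c.

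An unadjusted p under 0.05 was reached in edgeR by 0 of 38 members in each of the 7 comparisons. Of all genes, it was reached by 0.897% for KD in unstressed mice, 0.824% for KD in stressed mice and 1.52% for KD averaged over stress. For stress the share was 0.402% under LacZ, 1.79% under KD and 2.21% averaged over virus, and for the interaction it was 0.355%. DESeq2 and limma called 0 members as well. By an unadjusted p, DESeq2 had 1 member for stress under KD, against 2.47% of all genes, 1 for stress averaged over virus, against 3.16%, and 0 in the other comparisons. By the same measure limma had 4 for stress under KD, against 4.96%, 5 for stress averaged over virus, against 6.67%, 1 for KD averaged over stress, against 6.38%, and 0 in the others. The ranges of both groups overlapped for all 38 members in the 6 comparisons of groups, as they did for nearly all genes, since at most 0.00522% did not. Standard errors of the averaged comparisons ran from 0.0900 for Synj1 to 0.66 for Doc2a on the log2 scale, so the precision differed widely between members.

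With the first component as a covariate more members reached an unadjusted p of 0.05 in edgeR, and those for stress were all below 0. For stress averaged over virus there were 11 of 38, against 10.5% of all genes: Ppfia2 at -0.21, Vamp2 at -0.29, Bsn at -0.34, Rims2 at -0.24, Pclo at -0.21, Doc2b at -0.54, Syt7 at -0.29, Syn3 at -0.26, Erc2 at -0.21, Syn1 at -0.24 and Rims1 at -0.38. Of these 6 are active zone genes. The lowest adjusted p was 0.427, so none was called. With surrogate variables in place of the component there were 6 of 38, against 9.8% of all genes. Beside them, 3 of 3 neuron markers tested lay below 0 for stress without the covariate, with a median of -0.20, as did 5 of 5 excitatory neuron markers, with a median of -0.10, and 5 of 6 oligodendrocyte markers, with a median of -0.23. The 4 microglia markers tested lay above 0, with a median of 0.14, and P2ry12 was at 0. The T cell markers, 4 of 4, lay above 0 with a median of 0.51, and 5 of 6 interneuron markers below 0 with a median of -0.11. The bone markers, 6 of 6, lay above 0 with a median of 2.27. KD stressed replicate 2 held 2421 CPM of them, against a median of 21.6 CPM in its group. The excitatory markers summed to 253 to 1112 CPM in KD stressed, 470.1 to 1033 in KD unstressed, 509 to 1069.7 in LacZ stressed and 402 to 1472 CPM in LacZ unstressed libraries. Their part in the members' values was not tested. For KD averaged over stress there were 5 of 38 against 7.79%, led by Cplx1, the other complexin, at -0.31 (unadjusted p = 0.000602, adjusted p = 0.630 in edgeR). The count was 1 of 38 against 5.35% for KD in unstressed mice, 2 against 2.38% for KD in stressed mice, 1 against 1.87% for stress under LacZ, 7 against 8.52% for stress under KD and 0 against 0.85% for the interaction. The members with such a p were measured in the same libraries and are not independent counts, and none was called.

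The rest of the pathway was read from a list of 85 other genes of release and vesicle recycling, of which 80 were tested. In edgeR 0 passed in the 7 comparisons, and 1 had an unadjusted p under 0.05 in each of 3 comparisons, KD in unstressed mice, KD averaged over stress and stress averaged over virus. Of all genes 0.897%, 1.52% and 2.21% had such a p in these comparisons, in the same order. For stress averaged over virus 63 lay below 0, with a median of -0.08, against 53.7% and -0.01 for all genes. For KD averaged over stress 69 did, with a median of -0.10, against 55.9% and -0.02 for all genes. The smallest p values were those of Syngr3, a synaptogyrin of the vesicle membrane, at -0.34 ± 0.13 for KD (unadjusted p = 0.0185, adjusted p = 1.00 in edgeR), and Syt9, another synaptotagmin, at -0.31 ± 0.15 for stress (unadjusted p = 0.0421, adjusted p = 1.00 in edgeR). Dnm3, a dynamin, stood at -0.25 ± 0.12 for stress and Rab3ip, a Rab activator, at -0.15 ± 0.07 for KD. Along the first component 44 of the 80 rose and 30 fell, where 40.6% of all genes rose and 36.5% fell.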

How the data were processed

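Total RNA of 28 tissue samples, 7 mice in each of 4 groups, was depleted of ribosomal RNA and sequenced as stranded paired-end libraries, per the labels' protocols. The authors counted fragments with featureCounts 1.6.2 over whole gene spans of Ensembl 90 (GRCm38), with introns included and no strand option, after duplicate removal, per the file headers. HISAT2, Subread and DESeq2 are also named in the submitters' processing notes. The deposited counts were used as they are. Of 52636 gene IDs, 52403 matched a symbol.

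Counts were tested in edgeR 4.0.16 (R 4.3.3) with TMM factors, filterByExpr, 1 mean per group over all 28 libraries and robust quasi-likelihood F tests. Benjamini-Hochberg adjustment ran over the 19171 genes tested, with a threshold of 0.05. In all 7 contrasts were made. Alternatives used limma 3.58.1, DESeq2 1.42.0 and sva 3.50.0. The first principal component was taken from log2 CPM (prior count 2). Scripts were tested on simulated data. Levels are CPM on TMM-scaled library sizes; intervals cover 95%.

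The members and gene lists were chosen with earlier results of these data known. Named are the core genes, the 3 members with the smallest p per comparison, the 3 at each end of level, SD and slope, paralogue pairs, and up to 3 pathway genes per comparison. The fits that use title numbers, entered as above 20 or not, were chosen after seeing the data.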

Additional observations from a re-analysis of the deposited data

Results flagged for a closer look

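In 5 of 152 checks of a member within a group of 7 libraries, the highest or lowest library stood apart from the nearest of the others by more than Dixon's 95% limit, and chance alone gives about 1 in 20. Syn3 was at 134 CPM in KD unstressed replicate 2, and the next library was at 69.9 CPM. Sv2c was at 51.4 CPM in KD stressed replicate 7, the library with the most striatal neuron markers, and the next was at 26.4 CPM. Syn1 was low in LacZ unstressed replicate 6, at 59.4 CPM, with the next library at 77.6 CPM. Unc13b was at 199 CPM in LacZ stressed replicate 4, with the next at 146 CPM. Rims1 was at 0.410 CPM in LacZ unstressed replicate 7, with the next at 0.272 CPM, and rests on few fragments.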

How the results depend on the processing

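Under the 40 or 41 settings run for each of the 7 comparisons, 0 members and 0 genes were called. The settings were other tools, scalings and filters, covariates, fewer libraries and, for the main edgeR fit only, a looser threshold of 0.1. Among all genes the lowest adjusted p in DESeq2 was 0.0705 for stress under KD and 0.0960 for stress averaged over virus. In limma it was 0.0761 for stress averaged over virus. The median log2 fold change of the members, leaving out each library in turn, ran from -0.12 to -0.01 for KD in unstressed mice, -0.20 to -0.06 for KD in stressed mice, -0.14 to -0.04 for KD averaged over stress, -0.18 to -0.04 for stress under LacZ, -0.23 to -0.10 for stress under KD, -0.17 to -0.06 for stress averaged over virus and -0.14 to 0.00 for the interaction. With surrogate variables the median was -0.03 for stress averaged over virus and -0.00 for KD averaged over stress. The median changed sign in 2 comparisons. For KD in unstressed mice, -0.05 in all libraries, it was 0.0018 with surrogate variables and 0.0010 with title numbers split at 20 as a covariate. For the interaction, -0.06 in all libraries, it was 0.0037 without LacZ stressed replicate 4. The direction of single members was followed only for the 3 with the smallest p per comparison, and it changed once. The interaction of Sv2c, 0.27 in all libraries, was -0.025 without the 3 libraries with bone, striatal or few T cell transcripts. It was 0.01 without KD stressed replicate 7 alone. The other named members were not followed in this way. Syn3 averaged over stress ran from 0.13 without KD unstressed replicate 2 to 0.29. The cause was not tested. The slope was called for 30 to 34 members leaving out each library in turn and for 33 with RLE factors. No paired analysis was possible because each sample title holds a number of its own and the groups share none. The intervals of the variable members are wide, so changes within them could not have been detected here.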
